A study of Homo sapiens with 3 samples.

Results

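Histone marks were examined at 6 genes that make or clear androgens in LNCaP, an androgen-responsive line established from a metastasis of a human prostate carcinoma. The 6 genes lie in 5 windows of hg19, since UGT2B17 and UGT2B15 are neighbours and share a window. A called region belonged to a window when it shared at least 1 bp with it. The windows, 480 kb in all, held 20 of the 71077 H3K27ac regions and 38 of the 200812 H3K4me1 regions outside the mitochondrial sequence. H3K27ac is an acetylation of active enhancers and promoters, and H3K4me1 is a methylation of enhancers, active or primed. Each mark was measured by ChIP-seq in 1 library of LNCaP cells, for which the labels name no treatment or genetic change, and the third sample, an input without antibody, was not analysed here. With 1 library per mark there is no replicate spread, so no p-value is given and every value describes these lists. The regions are above an unstated threshold and the depth is unknown, so where no region is listed the mark may still be present. Marker genes of the line were not checked, because no hg19 gene annotation was used.

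The androgen pathway runs from adrenal precursors to dihydrotestosterone and ends in conjugation. HSD3B1 converts dehydroepiandrosterone to androstenedione, and AKR1C3 reduces androstenedione to testosterone. SRD5A1 and SRD5A2 are steroid reductases that turn testosterone into dihydrotestosterone, the stronger ligand of the androgen receptor, and SRD5A2 is the main isoenzyme of the normal prostate. UGT2B17 and UGT2B15 attach glucuronic acid to dihydrotestosterone and its metabolites, which inactivates them and lets them be excreted. In prostate tumours these enzymes influence how much hormone reaches the receptor.

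The promoters of the members fell into a CpG-rich pair and a CpG-poor group, and one sequence per gene is shown so that this contrast can be read from the bases. RefSeq's promoter table (GRCh38.p14, 250 bases before to 50 after a start) held 5 of the 6 members, and UGT2B17 is named only. Each sequence is given 5′ to 3′ on the strand of its gene, and where a gene has 2 listed starts (HSD3B1 and AKR1C3) the lower is shown. The 2 HSD3B1 sequences overlap, while that of the other AKR1C3 start, chr10:5094164-5094463, lies far above the one shown. Which start LNCaP cells use was not read. Capitals mark CpG dinucleotides and matches to the motifs listed after them. These positions are of GRCh38.p14 and cannot be compared with the hg19 positions of the regions.
SRD5A1, chr5:6633190-6633489, + strand: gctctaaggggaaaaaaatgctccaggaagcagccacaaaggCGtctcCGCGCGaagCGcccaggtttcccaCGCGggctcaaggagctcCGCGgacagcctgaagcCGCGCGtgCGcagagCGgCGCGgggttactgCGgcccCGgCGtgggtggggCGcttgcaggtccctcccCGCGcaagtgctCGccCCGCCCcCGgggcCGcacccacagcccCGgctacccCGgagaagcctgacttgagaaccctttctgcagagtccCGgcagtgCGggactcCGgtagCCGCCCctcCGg
SRD5A2, chr2:31580889-31581188, - strand: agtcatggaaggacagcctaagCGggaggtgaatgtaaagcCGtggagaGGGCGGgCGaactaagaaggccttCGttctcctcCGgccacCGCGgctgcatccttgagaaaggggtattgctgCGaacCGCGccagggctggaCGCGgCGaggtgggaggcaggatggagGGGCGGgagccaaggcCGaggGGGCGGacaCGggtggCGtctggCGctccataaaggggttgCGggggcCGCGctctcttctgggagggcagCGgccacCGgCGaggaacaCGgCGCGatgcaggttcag
HSD3B1, chr1:119506953-119507252, + strand: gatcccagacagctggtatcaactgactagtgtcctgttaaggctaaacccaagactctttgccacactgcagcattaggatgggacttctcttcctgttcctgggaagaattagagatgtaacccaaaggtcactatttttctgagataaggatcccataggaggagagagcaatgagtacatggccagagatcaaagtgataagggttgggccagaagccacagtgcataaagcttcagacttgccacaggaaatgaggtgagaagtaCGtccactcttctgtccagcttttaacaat
AKR1C3, chr10:5048531-5048830, + strand: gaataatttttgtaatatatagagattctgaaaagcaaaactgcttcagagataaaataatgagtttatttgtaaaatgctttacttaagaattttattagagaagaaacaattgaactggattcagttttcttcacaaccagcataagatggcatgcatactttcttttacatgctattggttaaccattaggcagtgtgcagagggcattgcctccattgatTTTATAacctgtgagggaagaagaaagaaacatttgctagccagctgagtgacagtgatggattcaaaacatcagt
UGT2B15, chr4:68670603-68670902, - strand: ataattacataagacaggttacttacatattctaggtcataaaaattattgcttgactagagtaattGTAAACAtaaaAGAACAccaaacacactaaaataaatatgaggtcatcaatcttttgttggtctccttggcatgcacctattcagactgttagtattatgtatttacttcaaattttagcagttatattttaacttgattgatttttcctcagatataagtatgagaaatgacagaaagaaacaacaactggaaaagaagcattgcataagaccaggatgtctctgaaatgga

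SRD5A1 had 33 CpG dinucleotides in its 300 bases, more than 82.8% of 35114 promoters, and SRD5A2 had 29, more than 75.8%. HSD3B1 had 1 CpG, and UGT2B15 had none. AKR1C3 had none in the sequence shown and none at its other listed start. The median over all promoters was 14 (quartiles 4 and 28).

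Motifs were searched on both strands. The SP1 box GGGCGG occurred in SRD5A1 and SRD5A2, the CpG-rich promoters, and in 45.0% of all promoters. It was found at 2 places in SRD5A1 and 3 in SRD5A2, and each match contains a CpG by its letters. UGT2B15 held a match to the androgen receptor hexamer AGAACA, present in 14.8% of promoters, beginning at -172 relative to the start. It also held a reverse-strand match to the FOXA motif TGTTTAC, beginning at -183; TGTTTAC or TGTTTGC occurred in 7.17% of promoters. The AKR1C3 sequence shown had the TATA box letters TATAAA on the reverse strand (11.5% of promoters), and its other start had TGTTTGC on the reverse strand. The whole HNF1 site, its hexamer GTTAAT and the E-box CACGTG, found in 0.00570%, 6.88% and 7.26% of promoters, were in none of the members' sequences, and HSD3B1 had no match to any motif searched. These matches describe letters in the windows and not bound sites, and whether a called region covers a start was not read.

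**Figure D1:**
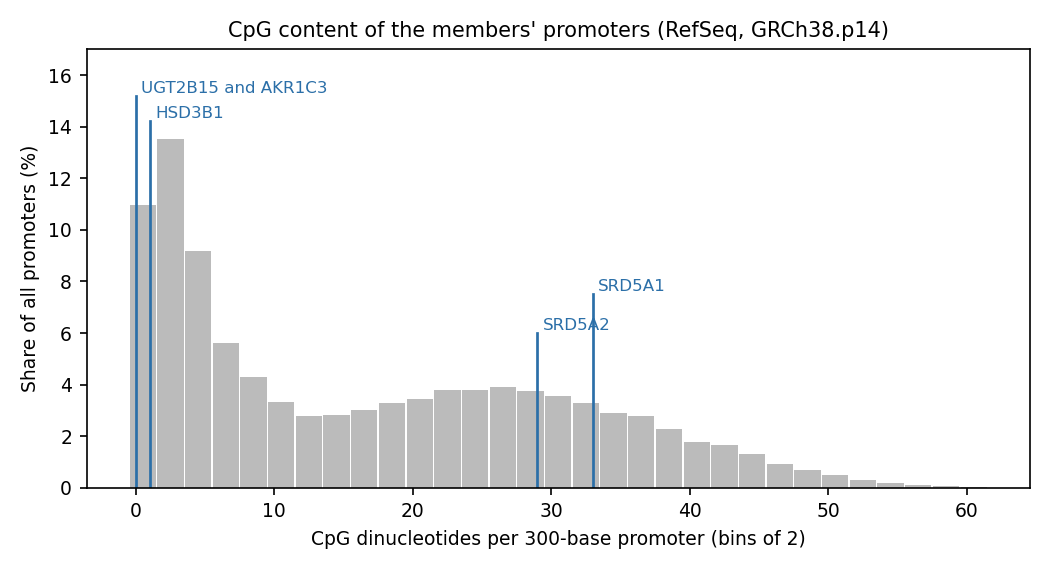
CpG dinucleotides per 300-base promoter (horizontal axis, bins of 2) against the share of all 35114 RefSeq promoters (vertical axis, %), with blue lines at the members. SRD5A1 and SRD5A2 stand at 33 and 29, and UGT2B15, AKR1C3 and HSD3B1 at 0 or 1.

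Of the 5 windows, 4 carried both marks and 1, that of HSD3B1, carried H3K4me1 alone. No window carried H3K27ac alone and none was free of both. Both marks is also the most frequent state of the genome at these lengths. Among all adjoining windows of chromosomes 1 to 22 and X, both marks were present in 76.7% at 180 kb, the length used for UGT2B17 and UGT2B15. The share was 66.2% at 100 kb, the length for SRD5A2, and 61.5% at 80 kb, the length for SRD5A1 and AKR1C3. It was 45.5% at 40 kb, the length for HSD3B1, where another 24.6% held H3K4me1 alone. The count of 4 windows is therefore near what windows of this size show anywhere.

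**Figure D2:**
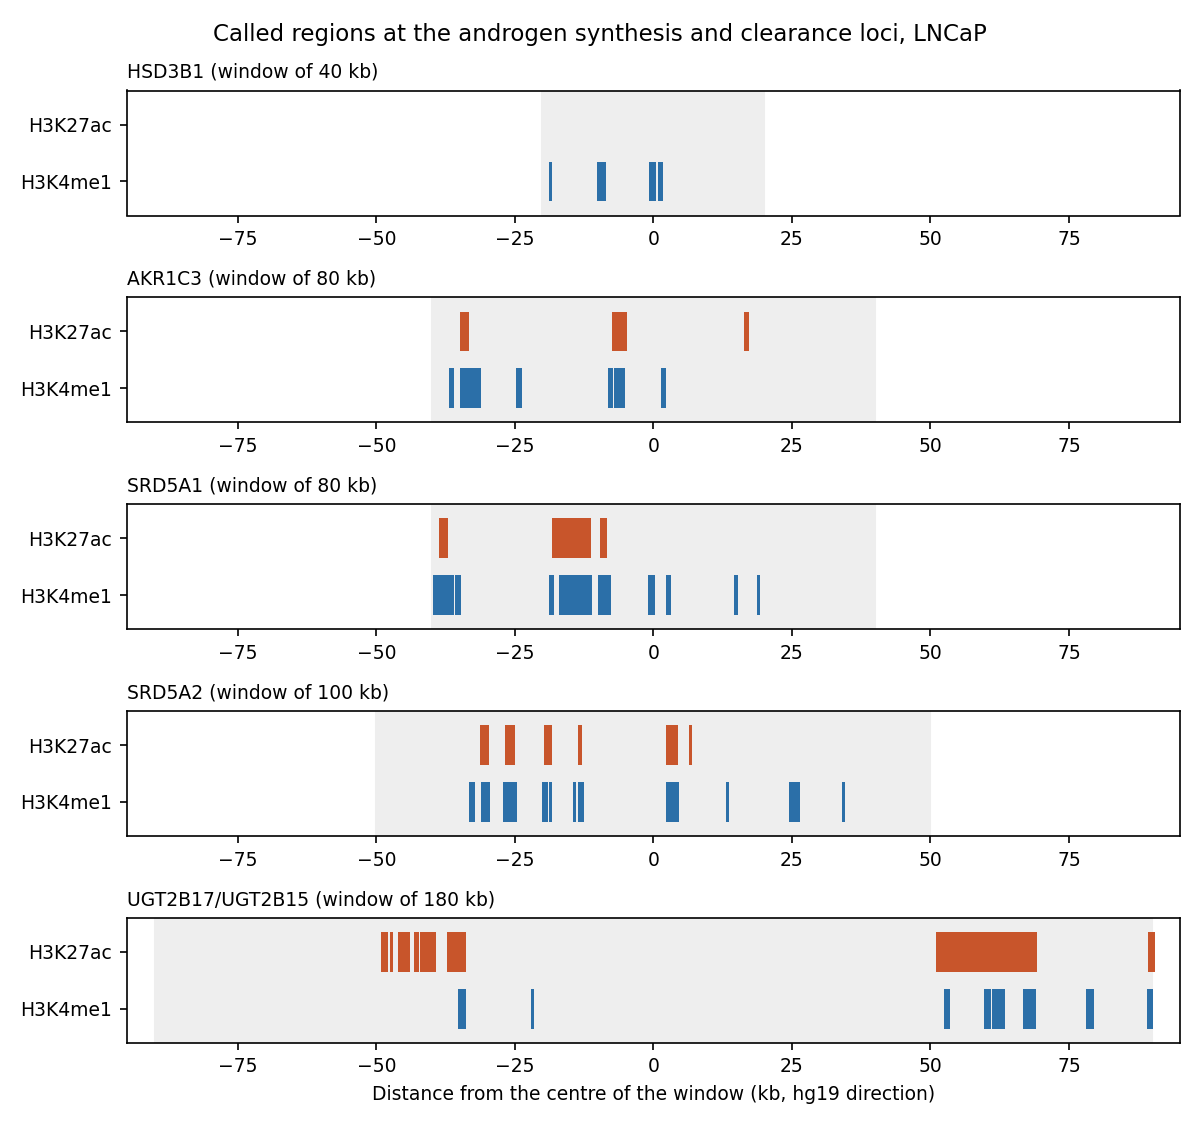
Called regions at each window (grey), with distance from the window's centre in kb on the horizontal axis, H3K27ac in orange above H3K4me1 in blue. HSD3B1 has no H3K27ac region, and the window of UGT2B17 and UGT2B15 holds the widest one, 18.05 kb.

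HSD3B1, the entry enzyme, lay on chromosome 1 from 120.03 to 120.07 Mb with 4 H3K4me1 regions and no H3K27ac region. The H3K4me1 regions ran from 120031201 to 120031800, from 120039901 to 120041550, from 120049251 to 120050550 and from 120050851 to 120051750. They covered 4.45 kb, or 11.1% of the window, against a median of 4.63% over all 40 kb windows, and 69.6% of those windows had less. The H3K4me1 share over the whole of chromosome 1 was higher, 14.5%. The region of 1650 bp had a score of 0.003, and the others had 0.005, 0.044 and 0.081. The score is the authors' unnamed value per region, and low scores were taken as the more stringent.

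The 4 HSD3B1 regions lay 22.35 to 42.3 kb from the nearest H3K27ac region. That region, from 120074101 to 120075350, began 4.10 kb above the window, and the nearest below ended 43.9 kb away. With the window widened by 20 kb on both sides, 2 H3K27ac regions entered and HSD3B1 too carried both marks, so its state rests on where the window ends. H3K4me1 then comprised 13 regions and 20.65 kb, while at scores up to the list median it covered 2.95 kb of the original window. Its surroundings were rich in both marks. H3K27ac covered 0% of the window, against 9.66% of the 250 kb below it and 17.9% of the 250 kb above it. H3K4me1 covered 11.1%, against 21.9% and 32.2%. A lack of H3K27ac is common at this length. The median H3K27ac share over all 40 kb windows was also 0%, and 24.6% held H3K4me1 alone and 27.6% neither mark. In the gene order of GRCh38, HSD3B2, the adrenal and gonadal isoenzyme, is the next coding gene below and ZNF697 the next above.

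AKR1C3, on chromosome 10 from 5.08 to 5.16 Mb, carried both marks. The median width of its H3K27ac regions, 1500 bp, was close to the 1600 bp of the whole list. Its 3 H3K27ac regions ran from 5085201 to 5086700, from 5112501 to 5115250 and from 5136301 to 5137350. The middle one, 2750 bp with a score of 0.004, overlapped 2 H3K4me1 regions over 80.0% of its width. The first, 1500 bp, lay wholly inside an H3K4me1 region of 3750 bp from 5085151 to 5088900. The third, 1050 bp, was 14 kb from any H3K4me1 region.

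The 6 H3K4me1 regions of AKR1C3 began at 5083151, 5085151, 5095151, 5111801, 5112851 and 5121301, and 3 of them met no H3K27ac. Over the whole list, 34.5% of H3K4me1 regions met H3K27ac. H3K27ac covered 5.30 kb and H3K4me1 9.80 kb of the 80 kb, with 3.70 kb in common. With the window shortened by 10 kb on both sides, H3K4me1 covered 5.1 kb with 2.2 kb in common, and at scores up to the list median H3K27ac covered 2.75 kb with 1.95 kb in common. With every region of the full window, the shares of 6.625% and 12.25% stood above the medians of all 80 kb windows, 2% and 5.375%, and 75.4% and 71.1% of windows had less. Over the whole of chromosome 10 the shares were 5.21% and 11.7%, the latter close to that of the window. Both marks covered more of the window than of its flanks. There H3K27ac covered 3.14% below and 4% above, and H3K4me1 8.18% and 8.08%. The upper 22.65 kb of the window, from 5137351, held no region of either mark. AKR1C3 stands among related genes, with AKR1C2 next below and AKR1C8 next above in GRCh38.

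SRD5A1, on chromosome 5 from 6.61 to 6.69 Mb, had the most common ground between the marks relative to its length. A single H3K27ac region of 7000 bp, from 6631801 to 6638800, was wider than 98.3% of H3K27ac regions. Its score was 0.001, the lowest of 12 values in the list, which 14.3% of H3K27ac regions share. It overlapped H3K4me1 over 88.6% of its width, mostly with a region of 5950 bp from 6632951 to 6638900. The other 2 H3K27ac regions, from 6611251 to 6612950 and from 6640351 to 6641600, lay wholly in H3K4me1.

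H3K4me1 at SRD5A1 comprised 9 regions. The 3 widest, the one of 5950 bp, one of 3750 bp from 6610301 to 6614050 and one of 2300 bp from 6640101 to 6642400, all had a score of 0.003 and all met H3K27ac. The other 6 measured 600 to 1300 bp with scores of 0.004 to 0.081, and 1 of them met H3K27ac. Every H3K27ac region of this window thus met H3K4me1, as did 83.1% of the whole H3K27ac list. The 5 H3K4me1 regions that stood alone were 1.25 to 27.05 kb from H3K27ac, and of all H3K4me1 regions 34.5% met H3K27ac. The imbalance is thus also that of the whole lists. Both marks together covered 9.15 kb, more than in 91.9% of all 80 kb windows, and no other window of the 5 reached 90%.

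H3K27ac covered 12.4% of the SRD5A1 window, against 5.22% of the 250 kb below and 4.40% of the 250 kb above. H3K4me1 covered 22.3%, against 23.02% and 18.94%, so the window stood out from its flanks in H3K27ac and little in H3K4me1. Over the whole of chromosome 5, H3K27ac covered 5.47% and H3K4me1 11.2%. NSUN2, an RNA methyltransferase gene, is the next coding gene below SRD5A1, and the regions were not assigned to either gene. Widened by 20 kb on both sides, the SRD5A1 window held 7 H3K27ac and 16 H3K4me1 regions.

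SRD5A2, on chromosome 2 from 31.73 to 31.83 Mb, carried both marks in regions of at most 2550 bp. The median width of its H3K27ac regions, 1550 bp, was close to the 1600 bp of the whole list. The 6 H3K27ac regions ran from 31748801 to 31750350, from 31753151 to 31754950, from 31760251 to 31761800, from 31766401 to 31767200, from 31782351 to 31784500 and from 31786451 to 31787050. Their widths were 600 to 2150 bp and their scores 0.007 to 0.032. H3K4me1 met 5 of them, against 83.1% of all H3K27ac regions. It covered 83.9% to 100% of each of the 5. The sixth, 600 bp wide with a score of 0.032, lay 1.75 kb from H3K4me1.

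SRD5A2 had 11 H3K4me1 regions, the most of the 5 windows by count. The windows differ in length, and these 11 lay in 100 kb against 9 in 80 kb at SRD5A1. With regions within 1 kb merged, SRD5A2 had 8, and SRD5A1 and the UGT2B window had 7 each. The widest were 2550 bp from 31752801 to 31755350, 2400 bp from 31782301 to 31784700 and 1900 bp from 31804551 to 31806450, each with a score of 0.003. The first pair met H3K27ac, and the region from 31804551 lay 17.5 kb from any. The other 8 measured 550 to 1700 bp, and 4 of them met H3K27ac. Over the whole list, 34.5% of H3K4me1 regions met H3K27ac. The 3 uppermost H3K4me1 regions of the window all stood without H3K27ac, and their place relative to the start of SRD5A2 was not read.

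At SRD5A2, H3K27ac covered 8.45% of the window and H3K4me1 14.15%, against medians of 2.20% and 5.60% over all 100 kb windows. Over the whole of chromosome 2 the shares were 4.49% and 8.84%. The flanks were poorer in H3K27ac, 4.36% below and 2.92% above, and in H3K4me1, 11.6% and 4.04%. No H3K27ac region lay within 83.8 kb below the window or 98.5 kb above it. With scores at or below each list's median, 3 H3K27ac and 6 H3K4me1 regions were left, and the length with both marks was 3.95 kb, against 7.5 kb with every region.

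**Figure D3:**
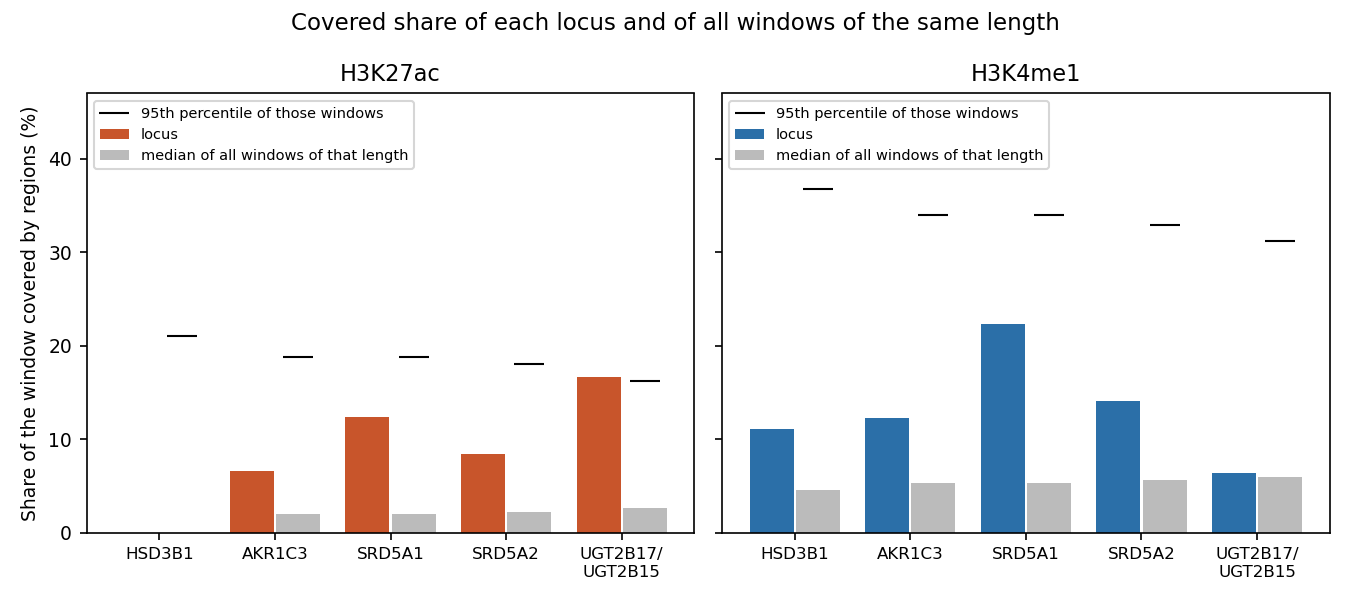
Share of each window covered by H3K27ac (left) and H3K4me1 (right), as coloured bars, beside the median (grey bar) and 95th percentile (line) of all windows of the same length. The window of UGT2B17 and UGT2B15 passes the 95th percentile for H3K27ac, 16.7% against 16.2%, and lies near the median for H3K4me1, 6.39% against 6%.

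UGT2B17 and UGT2B15, the clearance genes, shared the only window of the 5 with more H3K27ac than H3K4me1. In it, on chromosome 4 from 69.38 to 69.56 Mb, H3K27ac covered 30.0 kb and H3K4me1 11.5 kb, a ratio of 2.61. The ratio was 0.557 at SRD5A1, 0.597 at SRD5A2, 0.541 at AKR1C3 and 0 at HSD3B1, and 0.492 over the whole lists. H3K4me1 lay on 31.2% of the H3K27ac length, against 92.0% at SRD5A1, 88.8% at SRD5A2, 69.8% at AKR1C3 and 71.5% over the whole list. This difference was not tested, as the windows are single loci of 1 library per mark. How many 180 kb windows of the genome hold more H3K27ac than H3K4me1 was not counted. The 250 kb flanks on both sides also held more H3K27ac than H3K4me1.

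Apart from a region at its upper edge, the H3K27ac of the UGT2B window lay in a lower and an upper group 84.95 kb apart. The upper group was 1 region of 18.05 kb from 69521101 to 69539150, with rank 99 by width among all 71077 regions. It too had the widely shared score of 0.001. Inside it lay 4 H3K4me1 regions, from 69522451 to 69523450, from 69529601 to 69530950, from 69531051 to 69533450 and from 69536701 to 69539050. They covered 39.3% of its width, against a median of 87.8% over the 444 H3K27ac regions of 10 kb or more, of which 49 (11.04%) had a lower share. The widest of the 4, 2400 bp, began 9.95 kb above the lower edge of the wide region, and the uppermost ended 0.10 kb short of the region's upper edge.

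The lower group of the UGT2B window held 6 H3K27ac regions from 69420851 to 69436150. The uppermost of these, 3300 bp from 69432851, overlapped an H3K4me1 region from 69434701 to 69436200 over 43.9% of its width. The 5 below it met no H3K4me1, whereas 83.1% of all H3K27ac regions met it. These 5 began at 69420851, 69422501, 69424001, 69426801 and 69427851. They were 1300, 550, 2150, 850 and 3000 bp wide and had scores of 0.020, 0.032, 0.014, 0.021 and 0.007. Together they covered 7.85 kb of 10.0 kb, and the nearest H3K4me1 was 3.85 to 12.55 kb away. As listed, this run makes up 5 of the 7 H3K27ac regions of the 6 genes that met no H3K4me1. Its regions lie close together, and with regions within 1 kb merged the run is 1 region and the whole UGT2B window holds 4 H3K27ac regions, against 8 as listed, so these counts depend on whether close regions are merged.

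An eighth H3K27ac region of the UGT2B window, from 69559201 to 69560600, and an H3K4me1 region from 69559051 to 69560100 crossed its upper edge and overlapped each other. The remaining H3K4me1 regions, from 69448001 to 69448550 and from 69548151 to 69549550, met no H3K27ac. From 69448551 to 69521100, 72.55 kb held neither mark. In GRCh38 UGT2B17 is the lower and UGT2B15 the upper of these neighbours, and no region was assigned to either. Their family consists of closely similar genes, and how reads that fitted several places were treated is not given in the sources used here, so placement between them is uncertain.

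The high H3K27ac of the UGT2B window was shared by its neighbourhood. H3K27ac covered 16.7% of the window, against 15.7% of the 250 kb below, 13.3% of the 250 kb above and 3.91% of chromosome 4. H3K4me1 covered 6.39%, against 15.1%, 6.76% and 5.82%. More H3K27ac than H3K4me1 was found in the window and in both flanks, which held 39.2 and 33.4 kb of H3K27ac and 37.8 and 16.9 kb of H3K4me1. Copy number was not corrected for, and its part in these shares was not tested.

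**Figure D4:**
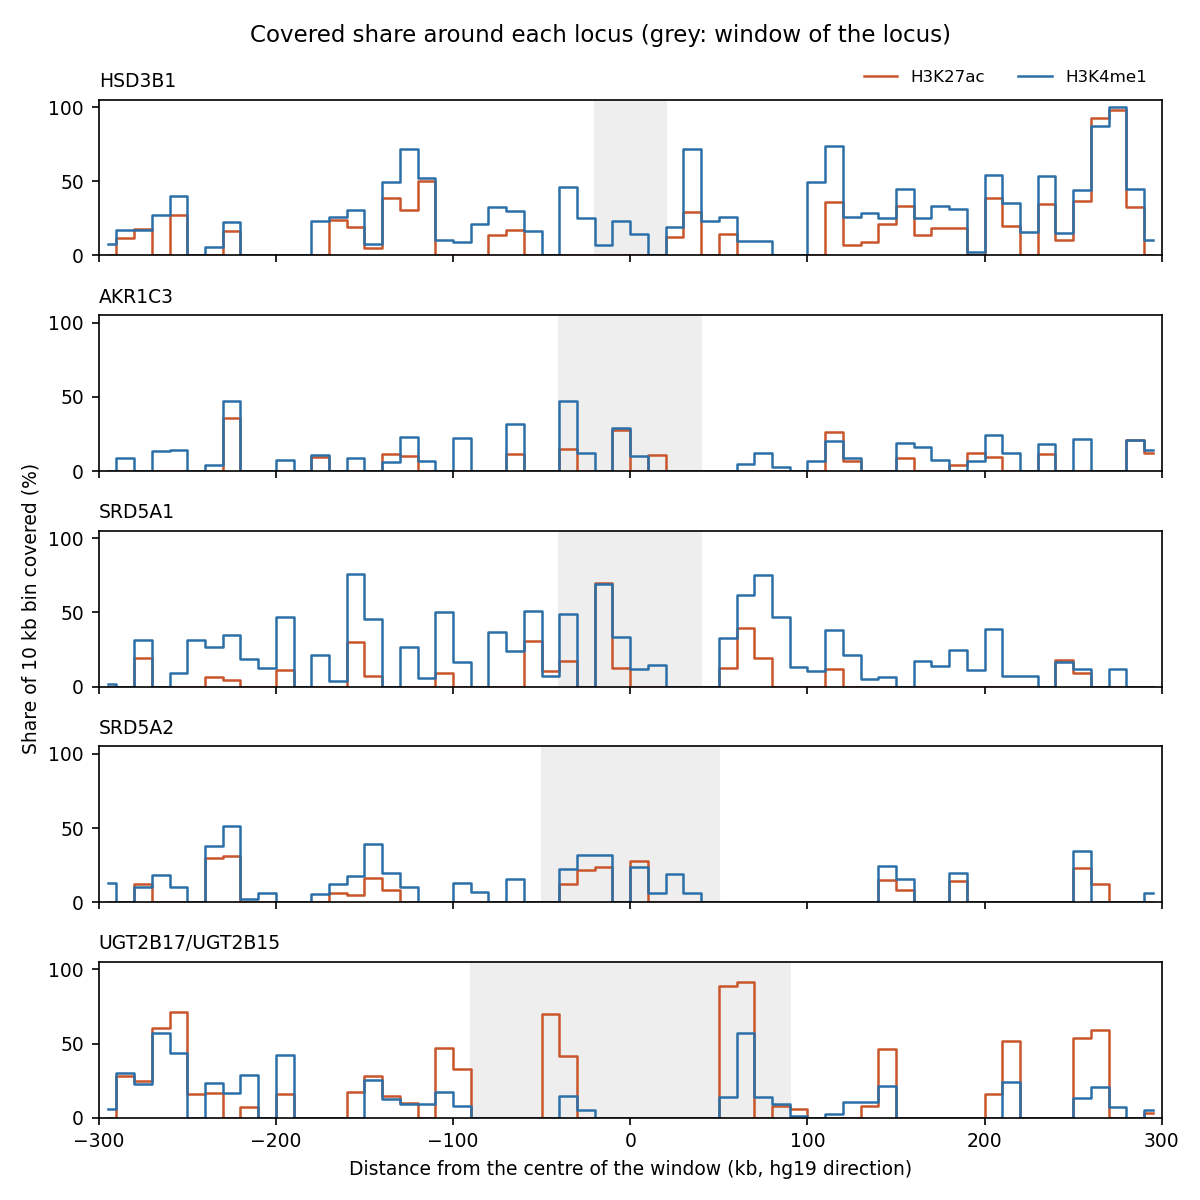
Share of each 10 kb bin covered by H3K27ac (orange) and H3K4me1 (blue) up to 300 kb from the centre of each window (grey), in % against distance in kb. Around UGT2B17 and UGT2B15 the orange line reaches above the blue at the tallest peaks, and at HSD3B1 it is 0 within the window.

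Over the 6 genes as a set, the share of regions that met the other mark could not be set apart from that of the whole lists at these numbers. Of the 20 H3K27ac regions, 13 (65.0%, exact Clopper-Pearson 95% interval 40.8% to 84.6%) overlapped H3K4me1, against 83.1% of all H3K27ac regions. H3K27ac overlapped 19 of the 38 H3K4me1 regions (50.0%, interval 33.4% to 66.6%), against 34.5% of all H3K4me1 regions. Both intervals contain the share of the whole list, cover counting error only and are too narrow, since neighbouring regions are not independent.

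Widths at the 6 genes were close to those of the lists. The median was 1550 bp for H3K27ac, against 1600 bp in its whole list, and 1150 bp for H3K4me1, against 1050 bp. The regions without the other mark measured up to 3000 bp for H3K27ac and up to 1900 bp for H3K4me1, while the widest regions, 18050 bp at UGT2B and 7000 bp at SRD5A1, met it. Joined over short gaps at the distance commonly used to stitch enhancers, H3K27ac at UGT2B formed clusters of 18.05 and 11.15 kb covered length. Their ranks were 869 and 2171 of 37027, and the region at the window's upper edge, 1.4 kb, had rank 26155. The highest ranks elsewhere were 3573 at SRD5A1, 6217 at SRD5A2 and 14662 at AKR1C3. At scores up to the list median, 0.009 for H3K27ac, 3 H3K27ac regions were left at UGT2B, among them the 18.05 kb region and 1 of the run of 5 without H3K4me1, and 1 at AKR1C3. At scores up to the H3K4me1 median, 0.008, 5 H3K4me1 regions were left at SRD5A1, 3 at AKR1C3 and 2 at HSD3B1.

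**Figure D5:**
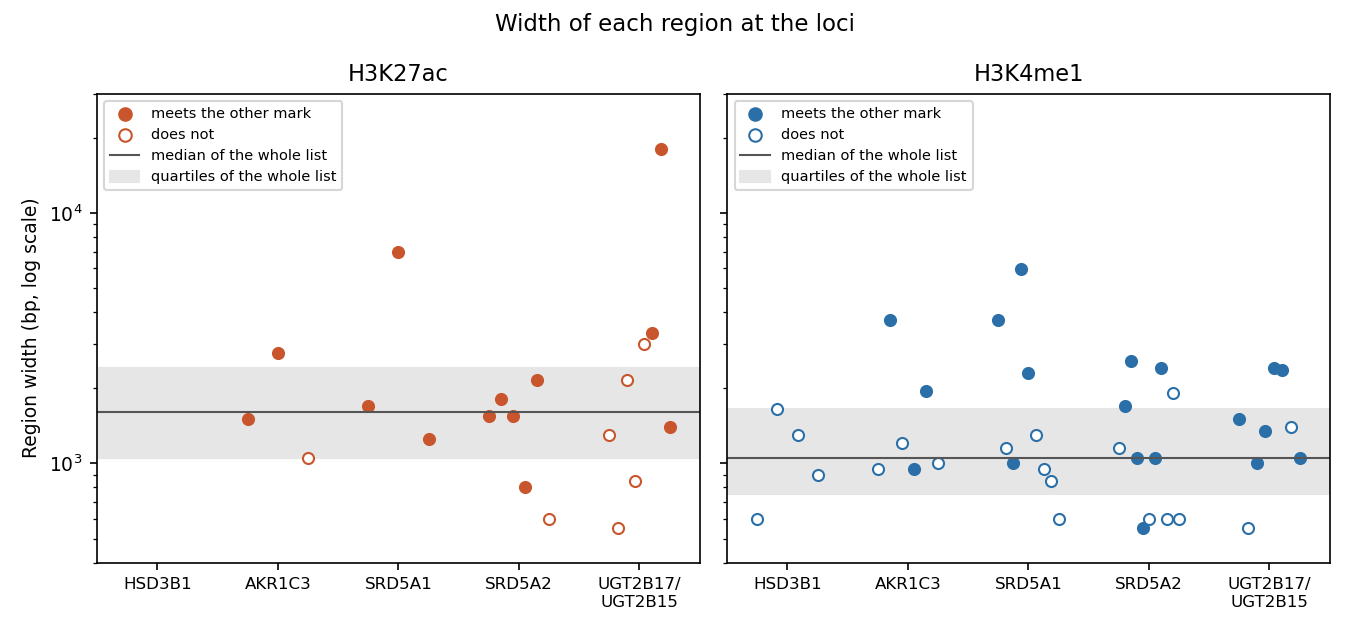
Width of every H3K27ac region (left, 20) and H3K4me1 region (right, 38) at the loci, in bp on a log axis; filled points meet the other mark and open points do not. The line and grey band are the median and quartiles of each whole list, and the highest point is the 18050 bp region of the UGT2B window.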

How the data were processed

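The series' 3 LNCaP samples are an H3K27ac ChIP, an H3K4me1 ChIP and their input. Per the labels' protocols, crosslinked chromatin was sonicated to mostly 200 to 600 bp and read as 50 bp single ends. Per the submitters' processing notes, Bowtie 0.12.8 and hg19 were used. For the region caller, its threshold and the use of the input, nothing is stated in the sources used here. The deposited lists hold a chromosome, start, end and unnamed score per region on a grid of 50 bp, with 1 library per mark and no read counts, so depth is unknown.

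Starts were read as 0-based and are printed counted from 1. Covered lengths were clipped to the window. Same-length windows adjoined each other from each chromosome's start to its last region. Named were the 6 genes, each region of a mark with 8 or fewer in a window and otherwise the 3 widest, and the nearest region outside where a mark was missing. The genes, windows and lists were chosen with earlier results of these data known. Alternatives were an overlap of at least 50%, scores at or below the list median, H3K4me1 scores under 0.05, merging within 1 kb, windows 20 kb wider or 10 kb shorter on both sides, a shifted grid and windows outside region-free stretches of 1 Mb. Interval computations were tested on 200 simulated lists without error. Other pathway genes were not analysed here, for want of an hg19 annotation, nor were protein or UGT2B17 promoter comparisons made. Neighbouring genes were read from RefSeq's GRCh38.p14 table. Analyses used Python 3.11.15, numpy 2.4.6, scipy 1.17.1 and matplotlib 3.10.9.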

Additional observations from a re-analysis of the deposited data

How the results depend on the processing

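The state of each locus was the same under 5 of the 6 settings for regions and windows. The exception was windows widened by 20 kb on both sides, where HSD3B1 gained H3K27ac, so that 5 loci carried both marks and 0 a single mark. The set held 20 H3K27ac and 38 H3K4me1 regions. At scores up to the list median it held 9 and 22, and with the wider windows 58 H3K4me1 regions. The share of all windows with both marks was 48.7% at 40 kb, 65.8% at 80 kb, 70.8% at 100 kb and 82.1% at 180 kb when windows in region-free stretches were left out. It was 32.3%, 46.9%, 51.7% and 64.4% at scores up to the median. With at least 50% of a region covered by the other mark, 55.0% of the H3K27ac and 39.5% of the H3K4me1 regions counted. At scores up to the median the shares were 77.8% and 40.9%. These lie within the wide intervals of the main setting. The whole-list shares were not recomputed, so likeness to the lists under these settings is not known. Of the 150 alternative values for single loci, 24 moved by over 1.5 times. No paired analysis was possible because no mark had a second library.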
